A study of Mus musculus with 8 samples.

Results

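The proteasome is the large protease that degrades ubiquitin-tagged proteins, and the genes of its subunits were followed here in the soleus, a calf muscle rich in slow fibres. Members were all genes whose Ensembl protein-coding symbol starts with Psm, a letter from a to g and a digit. The rule found 50 genes among the 22880 gene IDs, and 48 of them passed a filter on low counts that kept 14001 genes in all. RNA was sequenced from 4 control mice (Dnm2 +/+) and 4 mice heterozygous for the K562E point mutation of dynamin 2 (Dnm2 +/K562E), all C57BL/6 males (of the J substrain, per the methods of the study) aged 2 months. The mutation was placed in the endogenous Dnm2 gene by homologous recombination, so that every cell type of the muscle carries 1 mutant allele, and a loxP site remains in an intron of that allele. Psmc3ip matched the symbol rule only, because it encodes a binding partner of an ATPase subunit that acts in homologous recombination of DNA, and it was kept apart from the subunits below.

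A proteasome consists of a barrel-shaped core particle and regulatory particles docked at its ends. In the core, outer rings of alpha subunits gate the entrance, and inner rings of beta subunits carry the active sites on Psmb5, Psmb6 and Psmb7. The regulatory particle has a base with a ring of ATPases (Psmc1 to Psmc6) that unfold the substrate, and a lid that holds the deubiquitinase Psmd14. Interferon and immune cells bring in the immunoproteasome subunits Psmb8, Psmb9 and Psmb10, which take the places of Psmb5, Psmb6 and Psmb7 in newly built cores and change which peptides are cut for antigen presentation. Psme1 and Psme2 together form an interferon-inducible cap that activates the core without ATP, and Psme3 and Psme4 form separate caps. In skeletal muscle, the ubiquitin-proteasome route is known for the breakdown of myofibrillar proteins during atrophy.

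Total counts lay between 33407430 and 48832814 per mouse. Levels are given as normalised CPM, the counts of a gene per fixed library total after scaling with the TMM method of edgeR, whose factors were 0.91 to 0.96 in controls and 1.04 to 1.103 in Dnm2 +/K562E mice. Marker levels of several cell types differed between the genotypes. The summed level of 9 muscle fibre markers was 70513 to 78132 CPM in controls and 49113 to 54731 CPM in Dnm2 +/K562E mice, with 6 of the 9 lower and the defining markers Acta1 and Myh7 among these. All 8 macrophage markers were higher, with a summed level of 172 to 310.4 CPM in controls and 429 to 687 CPM in Dnm2 +/K562E mice. All 4 fibroblast markers were higher and all 4 endothelial markers lower. Fewer cells of a type and less RNA per cell cannot be told apart in such bulk samples. Dnm2 itself had 66.3 ± 4.74 CPM in controls and 73.4 ± 2.43 CPM in Dnm2 +/K562E mice (SD, n = 4; log2 fold change 0.15, adjusted p = 0.0909 with edgeR), which does not check the point mutation, since both alleles are counted.

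Most proteasome genes differed little between the genotypes, and those that moved went both ways. With edgeR's quasi-likelihood test, an adjusted p under 0.05 over all 14001 genes and an absolute log2 fold change of at least 0.58, 1 of the 48 members rose (2.08%, Psmd8), where 12.9% of all genes did. By the same thresholds 2 fell (4.17%, Psme1 and Psmc3ip), where 7.85% of all genes did. With the adjusted p alone, 8 rose (16.7%, against 22.2% of all genes) and 5 fell (10.4%, against 21.7% of all genes). All 4 Dnm2 +/K562E mice lay above all 4 controls for 8 members (16.7%, against 20.6% of all genes) and below them for 7 (14.6%, against 20.5% of all genes). Each of these member shares was below that of all genes.

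The median log2 fold change was 0.01 over the 48 members and 0.01 over all tested genes. The median of its absolute value was 0.116 over the members and 0.289 over all tested genes. An absolute log2 fold change under 0.1 was found for 20 of the 48 members (41.7%) and for 19.5% of all tested genes. The fold changes of the 31 tested subunits of the core and regulatory particles had an SD of 0.19, and those of all tested genes an SD of 0.67. These values describe the members and were not tested against the other genes, which were not matched to the members in count level. The plot of fold changes by role shows these members around 0, with Psmd8 and Psme1 at opposite ends among the subunits and activators.

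**Figure D1:**
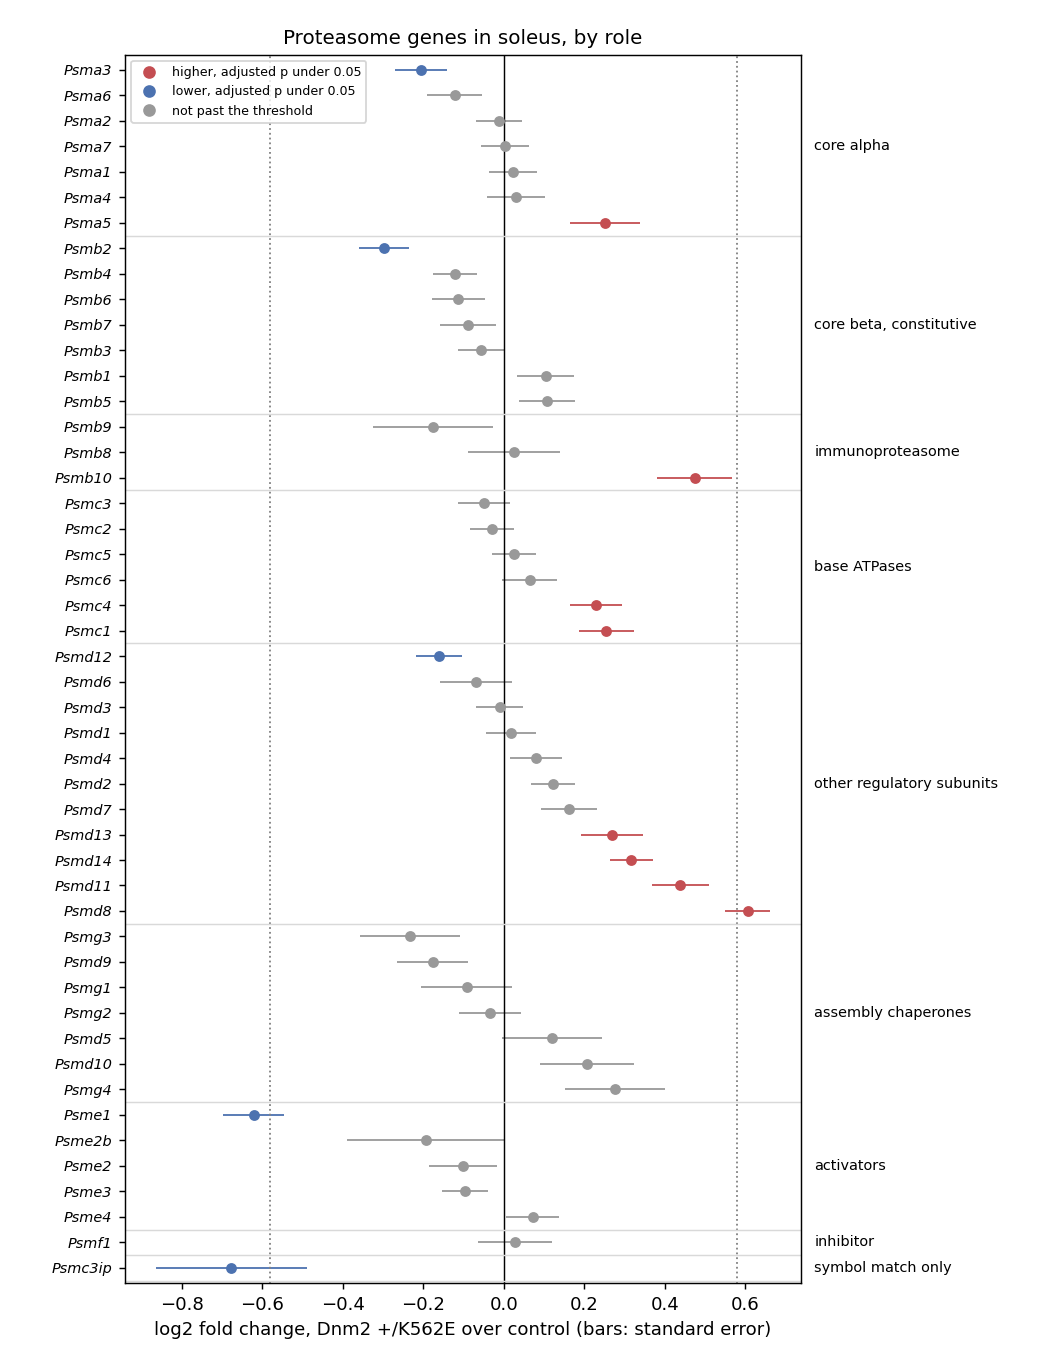
Log2 fold change of the 48 tested members (horizontal axis, Dnm2 +/K562E over control, 4 mice each), grouped by role, with standard error bars and dotted lines at the fold threshold of 0.58 in either direction. Red points are higher and blue points lower at an adjusted p under 0.05; Psmd8 at 0.61 and Psme1 at -0.62 lie outside the dotted lines, as does Psmc3ip at -0.68, which is not a subunit.

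The promoters of Psmd8, Psme1, Psmb8 and Psmb10 are shown for what the results turn on: the subunit gene that rose most, the activator gene that fell, and a pair of interferon-inducible genes of which Psmb10 rose and Psmb8 did not pass the test. Each window holds the 250 bases before the start and the first 50 bases of the RefSeq transcript (GRCm38.p6), read 5′ to 3′ on the strand of the gene. Psmd8 lies at chr7:29180624-29180923 on the minus strand, Psme1 at chr14:55578244-55578543 on the plus strand, Psmb8 at chr17:34197945-34198244 on the plus strand and Psmb10 at chr8:105938343-105938642 on the minus strand. Capitals mark matches to the motifs named in the next paragraph.
Psmd8: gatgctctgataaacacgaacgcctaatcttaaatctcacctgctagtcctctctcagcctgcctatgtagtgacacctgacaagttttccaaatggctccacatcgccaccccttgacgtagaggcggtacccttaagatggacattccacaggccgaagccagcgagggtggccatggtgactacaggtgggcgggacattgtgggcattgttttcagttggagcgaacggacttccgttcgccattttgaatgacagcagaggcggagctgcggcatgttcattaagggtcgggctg
Psme1: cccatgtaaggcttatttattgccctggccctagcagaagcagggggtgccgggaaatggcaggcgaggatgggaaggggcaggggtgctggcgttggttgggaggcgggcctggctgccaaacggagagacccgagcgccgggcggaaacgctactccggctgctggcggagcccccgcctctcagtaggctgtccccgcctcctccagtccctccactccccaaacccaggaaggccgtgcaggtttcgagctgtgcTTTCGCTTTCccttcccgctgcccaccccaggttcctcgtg
Psmb8: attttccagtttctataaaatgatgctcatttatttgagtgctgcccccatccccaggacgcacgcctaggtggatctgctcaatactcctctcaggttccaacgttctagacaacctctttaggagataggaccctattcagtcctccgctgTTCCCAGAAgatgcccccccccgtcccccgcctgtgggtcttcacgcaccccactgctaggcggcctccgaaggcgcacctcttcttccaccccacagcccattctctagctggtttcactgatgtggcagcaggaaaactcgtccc
Psmb10: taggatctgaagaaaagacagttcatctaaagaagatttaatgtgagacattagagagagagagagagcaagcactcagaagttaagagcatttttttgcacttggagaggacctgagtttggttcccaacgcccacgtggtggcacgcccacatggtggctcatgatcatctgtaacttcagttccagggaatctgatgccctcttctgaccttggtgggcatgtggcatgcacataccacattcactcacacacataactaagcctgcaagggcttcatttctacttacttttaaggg

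Motifs were searched on both strands in 45 RefSeq promoters, which matched 42 of the 50 member genes. The antioxidant response core (TGACNNNGC), bound by the factors Nfe2l1 and Nfe2l2 that control proteasome genes, was found in 13.3% of the member promoters and in 12.4% of all 32851 promoters. The NF-Y box (CCAAT) was found in 33.3% and 37.4%, and the interferon gamma activated site (TTCNNNGAA) in 6.67% and 8.3%. The interferon stimulated response element (GAAANNGAAA) was found in 11.1% of the member promoters and 3.44% of all promoters. Its 5 genes were Psmb3, Psmd4, Psmd9, Psme1 and Psmg4, and of these Psme1 fell and the others did not pass the test. In the promoters printed above, the capitals of Psme1 are this element, starting 9 bases after the first base of the transcript, and those of Psmb8 are an interferon gamma activated site, which starts 97 bases before the start. None of the 4 motifs was in the windows of Psmd8 and Psmb10. The motifs may overlap each other, and a match is a run of letters, not a measured site.

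Of the alpha subunits of the core, 1 rose, 1 fell and 5 did not pass the test, and their median log2 fold change was 0.00. Psma5, an alpha ring subunit, had 48.4, 50.5, 61.5 and 49.2 CPM in controls 1 to 4 and 65.2, 59.3, 58.7 and 66.4 CPM in Dnm2 +/K562E mice 1 to 4. Control 3 lay above the other controls and within the range of the Dnm2 +/K562E mice, so that the groups overlapped. The log2 fold change was 0.25 (SE 0.09, adjusted p = 0.035) and passed the threshold in 10 of the 17 alternative analyses, which changed the tool, the scaling or the filter, added a block or a correction, or left out 1 mouse. Of the alternatives, 5 of the 8 that left out 1 mouse lost it: control 1, 2 or 4, or Dnm2 +/K562E mouse 1 or 4. Moreover, 61.0% of the 31-base stretches of its transcripts also occur in other genes, mostly pseudogenes, so that its count is uncertain. Psma3 had 127, 140, 145 and 128 CPM in controls and 113, 112, 119 and 125 CPM in Dnm2 +/K562E mice. All Dnm2 +/K562E mice lay below all controls, at a log2 fold change of -0.21 (SE 0.06, adjusted p = 0.025), and the sign turned when libraries were scaled by their size alone (0.0053). It passed in 10 of the 17 alternatives, and was lost without control 2, control 3, Dnm2 +/K562E mouse 1 or Dnm2 +/K562E mouse 2. Of its 31-base stretches 20.3% occur in other genes. The other 5 tested alpha subunits had values from -0.12 (Psma6) to 0.03 (Psma4).

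Psma8, a germ cell alpha subunit, and Psmb11, the beta subunit of the thymus, did not pass the filter. Psma8 had at most 3 counts in any mouse and 0 in 2 mice, and Psmb11 had at most 3 counts and 0 in 6 mice. Both were at the floor of what these depths resolve, and no fold is given. The germ cell markers Dazl, Ddx4 and Sycp3 did not pass the filter either.

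Among the constitutive beta subunits, 1 fell and 6 did not pass the test, with a median log2 fold change of -0.09. Psmb2, a beta ring subunit without an active site, had 71.9, 75.9, 73.8 and 71.2 CPM in controls and 61.1, 61.7, 61.2 and 54.0 CPM in Dnm2 +/K562E mice. The groups did not overlap, with Dnm2 +/K562E mouse 4 lowest. The log2 fold change was -0.30 (SE 0.06, adjusted p = 0.0027). With library size alone it was -0.09, no longer past the threshold. None of its 31-base stretches occur in other genes.

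The catalytic constitutive subunits stayed below the threshold. Psmb5, which carries the chymotrypsin-like activity, had 70.2, 81.6, 81.4 and 76.7 CPM in controls and 82.1, 79.1, 81.6 and 90.9 CPM in Dnm2 +/K562E mice. Its log2 fold change was the highest among the constitutive beta subunits (0.11, SE 0.07, adjusted p = 0.238), with Psmb1 next at 0.10. Psmb5 shares 71.7% of its 31-base stretches with pseudogenes and other genes, so its level is the least certain of the beta subunits. Psmb6, the caspase-like subunit, had 109, 116, 121 and 103 CPM in controls and 107, 96.3, 107 and 106 CPM in Dnm2 +/K562E mice. Psmb7, the trypsin-like subunit, had 157, 161, 176 and 146 CPM in controls and 157, 138, 150.4 and 154 CPM in Dnm2 +/K562E mice. In both, the groups overlapped, at log2 fold changes of -0.11 (SE 0.07, adjusted p = 0.191) for Psmb6 and -0.09 (SE 0.07, adjusted p = 0.323) for Psmb7, which shares 11.8% of its exon bases with Nek6 on the other strand.

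The 3 immunoproteasome subunits did not move together: Psmb10 rose, and Psmb8 and Psmb9 did not pass the test. Psmb10, the inducible counterpart of Psmb7, had 17.5, 14.5, 14.4 and 14.7 CPM in controls and 20.4, 19.1, 22.8 and 22.8 CPM in Dnm2 +/K562E mice. The groups did not overlap, although control 1 stood above the other controls. The log2 fold change was 0.47 (SE 0.09, adjusted p = 0.0019), and it stayed between 0.40 and 0.68 with an adjusted p of at most 0.0097 over the 17 alternatives. No 31-base stretch of its transcripts occurs in another gene.

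Psmb8, the counterpart of Psmb5, had 7.66, 7.25, 6.92 and 8.77 CPM in controls and 7.50, 7.04, 7.75 and 8.84 CPM in Dnm2 +/K562E mice. The ranges lay on top of each other (log2 fold change 0.03, SE 0.11, adjusted p = 0.876). Psmb9, the counterpart of Psmb6, had 4.68, 3.65, 4.03 and 4.98 CPM in controls and 3.40, 4.37, 3.79 and 3.76 CPM in Dnm2 +/K562E mice. Its ranges overlapped as well (log2 fold change -0.18, SE 0.15, adjusted p = 0.365), and its standard error was the widest of the 3. Psmb9 lies on the strand opposite to Tap1 and shares exon bases with it, and whether the counting used strand is not given in the sources used here. Reads that overlap several genes were counted, per the methods of the study, so Psmb9 may hold reads of Tap1 if strand was ignored.

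**Figure D2:**
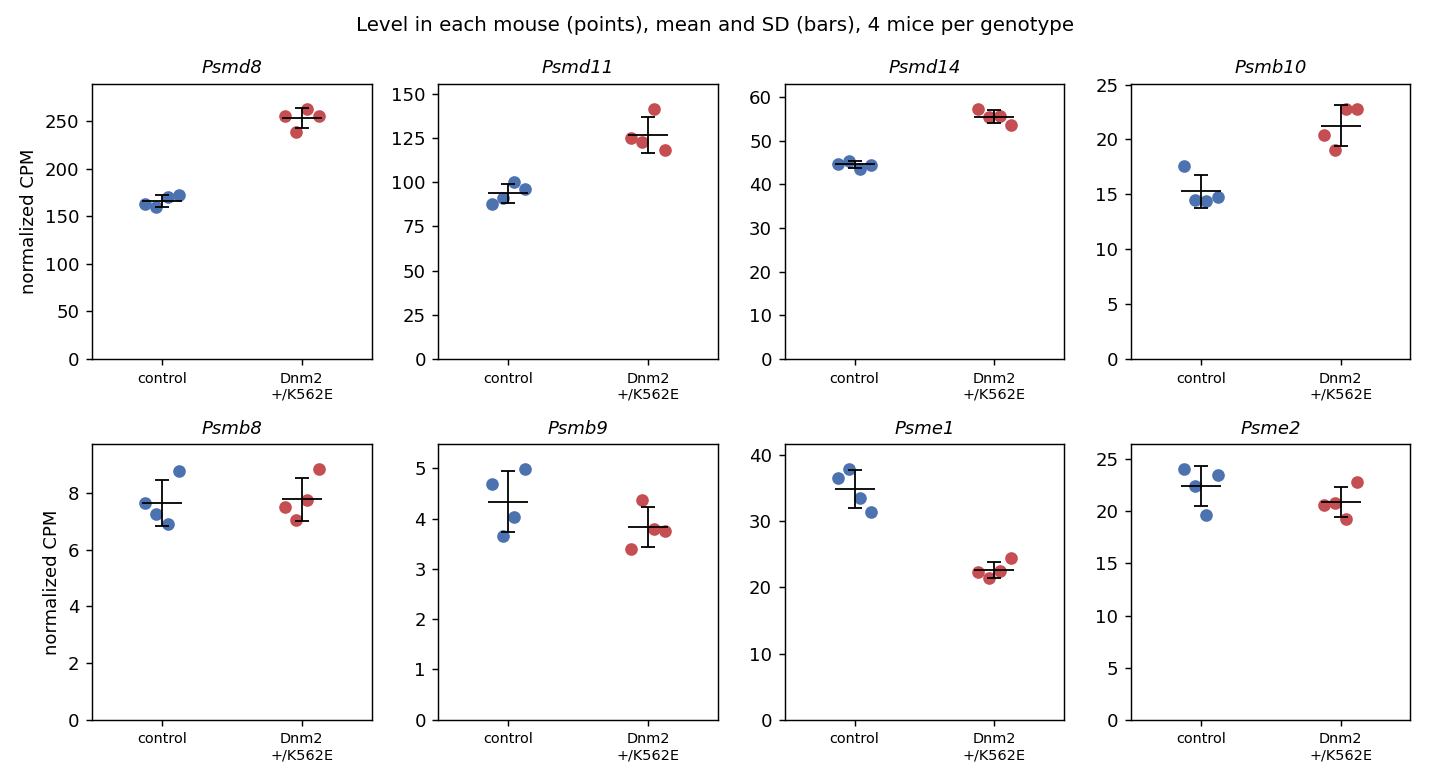
Normalised CPM (vertical axis, from 0) of 8 members in each mouse, as points, with the mean and SD over 4 mice per genotype as bars. The Dnm2 +/K562E mice lie above all controls for Psmd8, Psmd11, Psmd14 and Psmb10 and below all controls for Psme1, whereas the groups overlap for Psmb8, Psmb9 and Psme2.

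Set beside its constitutive partner per kilobase of exon, the level of Psmb10 was 22.4%, 18.1%, 16.5% and 20.3% of that of Psmb7 in controls and 25.96%, 27.7%, 30.4% and 29.6% in Dnm2 +/K562E mice. Psmb8 stood at 2.64 ± 0.39% of the level of Psmb5 in controls and 2.48 ± 0.10% in Dnm2 +/K562E mice (SD, n = 4). Psmb9 stood at 1.99 ± 0.40% of the level of Psmb6 in controls and 1.89 ± 0.30% in Dnm2 +/K562E mice. Psmb10 was thus the most abundant inducible subunit per exon length in both genotypes, and it alone had ratios that did not overlap. Exon lengths are those of all annotated transcripts of a gene merged, which lowers the level of genes with long minor transcripts.

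The 15 genes listed for antigen processing and the interferon response, not all of them specific to either, went in different directions. By the adjusted p, 6 of the 15 rose. Irf8, a transcription factor of myeloid cells, had the highest log2 fold change (0.80, adjusted p = 0.0098). The endoplasmic reticulum chaperones Pdia3 (0.48), Calr (0.40) and Canx (0.37) rose, as did the interferon gamma receptor chain Ifngr1 (0.44). The peptide editor Tapbpl (0.42, adjusted p = 0.039) passed in 10 of the 17 alternatives, whereas the other 5 risers passed in all. The peptide-trimming enzyme Erap1 fell (-0.37, adjusted p = 0.0076), but not with library size alone. Tap1, the peptide transporter gene next to Psmb9, stood at 0.09 (adjusted p = 0.660). The macrophage markers given above rose by 1.147 (Mrc1) to 2.10 (Lgals3) on the log2 scale, and the leukocyte marker Ptprc by 1.199, while the 8 lymphocyte markers summed to 0.403 to 1.38 CPM in controls and 0.649 to 1.81 CPM in Dnm2 +/K562E mice, and Cd4 alone among them passed the filter. The part of these cells in the rise of Psmb10 was not tested.

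Of the 6 ATPases of the base, Psmc1 and Psmc4 rose and 4 did not pass the test, with a median log2 fold change of 0.04. Psmc1 had 105, 107, 108 and 97.5 CPM in controls and 132, 113, 121 and 132 CPM in Dnm2 +/K562E mice. All Dnm2 +/K562E mice were above all controls, at a log2 fold change of 0.25 (SE 0.07, adjusted p = 0.0105), and 32.2% of its 31-base stretches occur in other genes. Psmc4 had 66.0, 70.6, 78.7 and 67.9 CPM in controls and 84.5, 81.3, 83.2 and 83.0 CPM in Dnm2 +/K562E mice, again without overlap (0.23, SE 0.06, adjusted p = 0.0143). Both calls were lost with the length and GC correction alone among the alternatives. Psmc3, the ATPase with the lowest value, had 178, 181, 191 and 175 CPM in controls and 188, 161, 168 and 183 CPM in Dnm2 +/K562E mice (-0.05, SE 0.06, adjusted p = 0.562). The groups overlapped, and the other 3 ATPases lay between -0.03 (Psmc2) and 0.06 (Psmc6).

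The other subunits of the regulatory particle held the strongest rise among the subunits. Of 11, 4 rose, 1 fell and 6 did not pass the test, where 22.2% of all genes rose and 21.7% fell by the adjusted p. Their median log2 fold change was 0.12, and 0.02 with the length and GC correction, which also lowered the median of all genes. Psmd8, a lid subunit that joins late in lid assembly, had 163, 160.1, 170.4 and 173 CPM in controls and 256, 239, 263 and 256 CPM in Dnm2 +/K562E mice. The lowest Dnm2 +/K562E mouse was well above the highest control. The log2 fold change was 0.61 (SE 0.06, adjusted p = 1.3e-05), and it lay between 0.52 and 0.82 over the 17 alternatives with an adjusted p of at most 3.67e-04. It was under the fold threshold after the correction for gene length and GC content. Only 2.06% of its 31-base stretches occur elsewhere, and its promoter is printed above.

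Psmd11, a lid scaffold subunit at the interface with the core, had 87.4, 91.1, 99.9 and 96.1 CPM in controls and 125, 123, 142 and 118 CPM in Dnm2 +/K562E mice. The groups were apart, at a log2 fold change of 0.44 (SE 0.07, adjusted p = 5.65e-04). Psmd14, the lid enzyme that removes ubiquitin chains from the substrate, had 44.7, 45.4, 43.6 and 44.5 CPM in controls and 57.3, 55.3, 55.7 and 53.6 CPM in Dnm2 +/K562E mice. Its mice were tightly grouped within each genotype and the groups did not overlap (0.32, SE 0.05, adjusted p = 7.5e-04). Of the 31-base stretches of Psmd11, 15.8% occur in other genes, and of those of Psmd14 3.63%. Psmd11 and Psmd14 stayed past the adjusted p in all 17 alternatives. Psmd13, another lid subunit, rose by 0.27 on the log2 scale (SE 0.08, adjusted p = 0.0159), with 1 pair of mice in reverse order, since control 3 (80.3 CPM) was above Dnm2 +/K562E mouse 2 (79.98 CPM). It passed in 14 of the 17 alternatives. The length and GC correction, the block by title number and leaving out control 4 ended the call. Psmd13 shares 10.1% of its exon bases with Sirt3 on the other strand.

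Psmd12, a lid scaffold subunit as well, went the other way, with 116, 115, 123 and 116 CPM in controls and 111, 98.4, 103 and 108 CPM in Dnm2 +/K562E mice. The groups did not overlap, but the difference was small (-0.16, SE 0.06, adjusted p = 0.041) and passed the threshold in 6 of the 17 alternatives. Leaving out control 2, 3 or 4 or Dnm2 +/K562E mouse 2, 3 or 4 ended the call. So did edgeR's exact test, the fit without a filter on low counts, either replicate block and library size alone. With library size alone its sign turned (0.0497). The ubiquitin receptor Psmd4 (0.08) and the large base scaffolds Psmd1 (0.02) and Psmd2 (0.12) did not pass the test, nor did Psmd3 (-0.01), Psmd6 (-0.07) and Psmd7 (0.16).

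The summed level of the 31 core and regulatory subunits was 3159, 3280, 3476 and 3159 CPM in controls 1 to 4 and 3490, 3273, 3394 and 3546 CPM in Dnm2 +/K562E mice 1 to 4. Control 3, which had the highest sum of the controls, and control 2 lay within the Dnm2 +/K562E range. Per kilobase of exon, the 7 tested alpha subunits of the control muscle ran from 21.6 (Psma2) to 83.4 CPM (Psma6), and the constitutive beta subunits from 24.3 (Psmb1) to 86.2 CPM (Psmb5). These levels depend on the merged exon length, which was 4595 bases for Psmb1 and 899 bases for Psmb5. Before division by length, Psmb1 was the higher in controls, with a mean of 112 against 77.5 CPM. Whether subunits present in equal numbers in the complex differ in transcript level thus cannot be read from these values. The plot of levels per exon length shows them for both genotypes. Psmd8 per kilobase went from 54.5 ± 1.99 to 82.9 ± 3.40 CPM, and Psmd14 from 15.8 to 19.7 CPM.

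**Figure D3:**
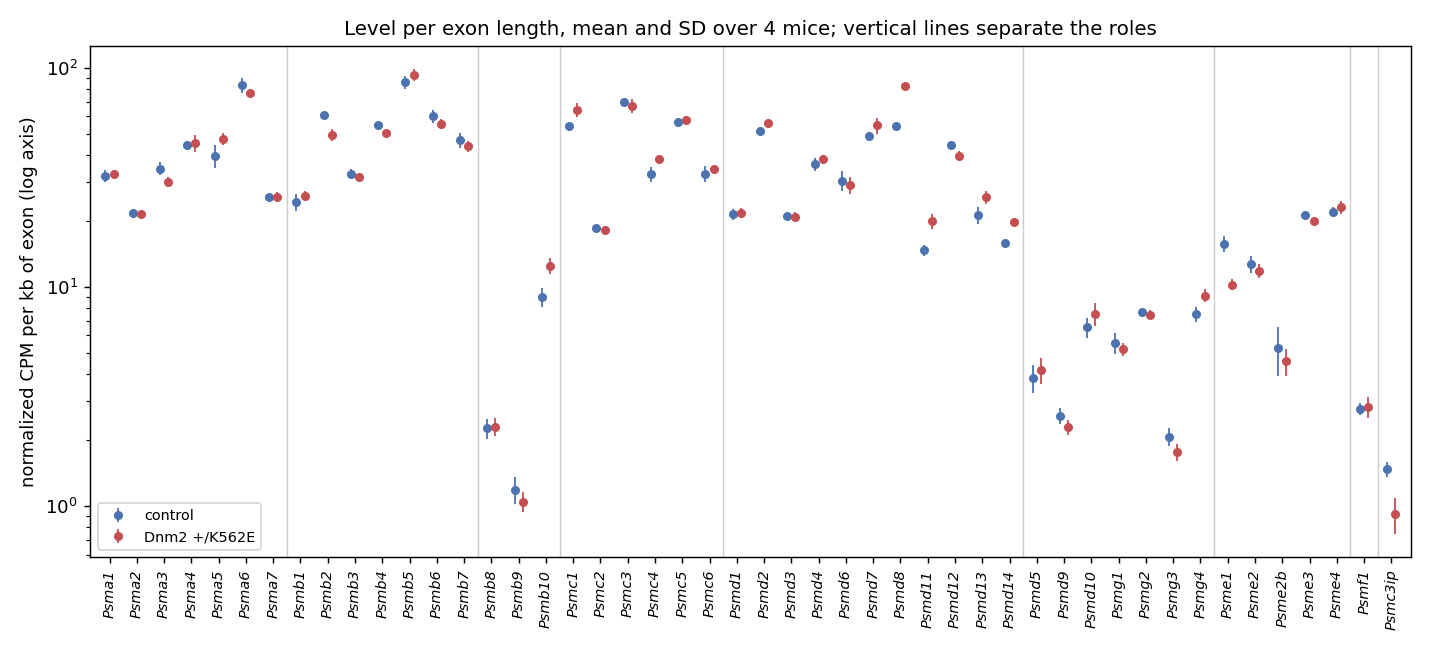
Normalised CPM per kilobase of merged exon (vertical log axis) of the 48 tested members, mean and SD over 4 mice, with controls in blue and Dnm2 +/K562E mice in red. Core and regulatory subunits lie above the immunoproteasome subunits and assembly chaperones in both genotypes.

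Of the assembly chaperones, which help to build the core and the base and then leave, none of the 7 passed the adjusted p with edgeR's quasi-likelihood test, with DESeq2 or with edgeR's exact test, and 1 had an unadjusted p under 0.05. That was Psmg4, with 3.90, 4.13, 4.64 and 4.03 CPM in controls and 4.997, 4.97, 4.72 and 5.57 CPM in Dnm2 +/K562E mice. All Dnm2 +/K562E mice were above all controls, by a log2 fold change of 0.28 (SE 0.12, adjusted p = 0.092). Psmg3, its partner in a chaperone pair, had 5.99, 6.44, 5.196 and 6.36 CPM in controls and 4.75, 5.16, 4.75 and 5.73 CPM in Dnm2 +/K562E mice. These overlapped, at -0.23 (SE 0.12, adjusted p = 0.151). The median of the 7 was -0.03.

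Among the activators, Psme1 fell and the other 4 did not pass the test. Psme1 had 36.5, 37.8, 33.5 and 31.4 CPM in controls and 22.3, 21.5, 22.4 and 24.4 CPM in Dnm2 +/K562E mice. The highest Dnm2 +/K562E mouse was below the lowest control. The log2 fold change was -0.62 (SE 0.08, adjusted p = 8.9e-05), and it lay between -0.69 and -0.41 over the 17 alternatives with an adjusted p of at most 0.0020. The value of -0.41, under the fold threshold, was that with library size alone. Of its 31-base stretches 9.51% occur in 2 pseudogenes. The muscle fibre and endothelial markers were lower in the same mice, with endothelial sums of 576 to 662 CPM in Dnm2 +/K562E mice against a mean of 824 ± 18.0 CPM in controls (SD, n = 4), and their part in the fall of Psme1 was not tested.

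Psme2, whose product pairs with that of Psme1 in the same ring and whose gene lies close by on chromosome 14, had 24.0, 22.4, 19.7 and 23.5 CPM in controls and 20.6, 20.8, 19.3 and 22.8 CPM in Dnm2 +/K562E mice. The groups overlapped (-0.10, SE 0.08, adjusted p = 0.357). Per kilobase of exon, Psme1 was at 121%, 134%, 136% and 107% of the level of Psme2 in controls and at 86.4%, 82.4%, 92.7% and 85.3% in Dnm2 +/K562E mice. The ratio was thus lower in all Dnm2 +/K562E mice than in all controls. Which gene of the pair is the higher depends on the merged exon lengths, 2209 bases for Psme1 and 1764 bases for Psme2. In CPM, Psme1 was the higher in every mouse, with means of 22.6 against 20.9 CPM in Dnm2 +/K562E mice. However, 33.5% of the 31-base stretches of Psme2 occur in Psme2b or a pseudogene, so the level of Psme2 is less certain than that of Psme1. The gene copy Psme2b had 4.86, 5.64, 3.14 and 3.92 CPM in controls and 3.77, 3.09, 4.22 and 4.22 CPM in Dnm2 +/K562E mice, with 78.4% of its stretches shared.

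Psme3, which encodes the activator of the nucleus, had 64.5, 65.0, 62.0 and 60.8 CPM in controls and 60.2, 55.1, 60.6 and 60.1 CPM in Dnm2 +/K562E mice. All Dnm2 +/K562E mice were below all controls by a small step (-0.10, SE 0.06, adjusted p = 0.202). Psme4, the single-chain activator, had 170.1, 192, 186 and 187 CPM in controls and 197, 190, 177 and 209 CPM in Dnm2 +/K562E mice, with overlap (0.07, SE 0.07, adjusted p = 0.408). Psmf1, which encodes an inhibitor of the core, was at 0.03 (SE 0.09, adjusted p = 0.830).

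Psmc3ip, the gene that shares only the symbol, had 2.502, 2.85, 2.49 and 2.86 CPM in controls and 1.77, 2.07, 1.41 and 1.43 CPM in Dnm2 +/K562E mice. All Dnm2 +/K562E mice were below all controls (-0.68, SE 0.19, adjusted p = 0.0136). It shares 21.2% of its exon bases with Mlx on the other strand, and with library size alone it did not pass the threshold (-0.46).

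Scaling the libraries by their size alone changed more of these calls than leaving out any mouse did, whereas median-ratio factors, the other scaling tried, left all 48 the same. With library size alone the call of 24 of the 48 members was the same, and without any 1 mouse that of at least 45. With library size alone, the median log2 fold change of all tested genes was 0.22 in place of 0.01, and that of the members was 0.22 in place of 0.01. By the adjusted p alone, 28 members then rose and 1, Psme1, fell, against 8 and 5 with TMM. Such a change of scaling moves all genes by nearly the same step. The like shift of both medians therefore follows from the scaling and is not a result about the members. The muscle fibre markers, which hold a large share of the counts, were lower in Dnm2 +/K562E mice, and their part in this shift was not tested.

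**Figure D4:**
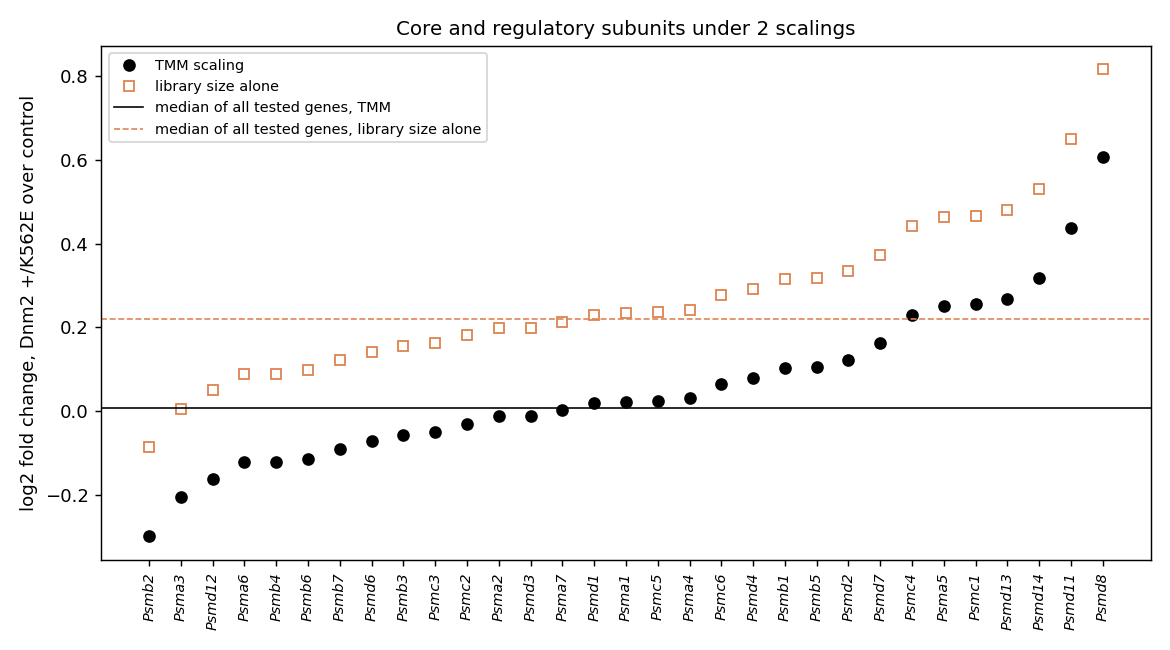
Log2 fold change (vertical axis) of the 31 tested core and regulatory subunits, ordered by the TMM value, with TMM scaling as filled circles and library size alone as open squares, and the median of all tested genes under each scaling as lines. Every subunit lies higher with library size alone, and so does the median of all genes, at 0.22 against 0.01. The scaling moves all genes by nearly the same step, so this shift is not particular to the subunits. Psmd8 stays highest and Psmb2 lowest under both.

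Proteasome genes outside the symbol rule also went both ways. Pomp, the maturation factor of the core, rose (0.40, adjusted p = 0.0032), and it passed in all 17 alternatives. The proteasome-bound deubiquitinase Usp14 (0.19, adjusted p = 0.047) passed in 4 of the 17 and was lost with DESeq2 and with edgeR's exact test. Ecpas, which binds both the core and the regulatory particle, fell (-0.31, adjusted p = 0.0014), but did not pass with library size alone. The ubiquitin receptor Adrm1 was at 0.02 (adjusted p = 0.795) and did not pass the test.

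Of 8 genes that control proteasome transcription or the factors behind it, 2 fell and 6 did not pass the test. Nfe2l1, which encodes the factor that raises proteasome genes when proteasome activity is short, had the highest value, at a log2 fold change of 0.08 (adjusted p = 0.424). Keap1, the adaptor that marks Nfe2l2 for degradation, fell (-0.21, adjusted p = 0.0129), as did the ubiquitin ligase Stub1 (-0.29, adjusted p = 0.0067). With library size alone neither passed, and the value of Keap1 turned to 0.0043.

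The ubiquitin-activating enzyme Uba6 (0.24, adjusted p = 0.034) passed in 7 of the 17 alternatives, and Uba1, the main such enzyme, was at 0.02 (adjusted p = 0.770). Of 9 genes of p97, the ATPase that extracts proteins for the proteasome, and its cofactors, Ubxn4 (0.50), Ubxn1 (0.37) and Nploc4 (0.28) rose, and 6 did not pass the test. The lowest of these was Faf1 (-0.11), and Vcp, the gene of p97 itself, had 0.13 (adjusted p = 0.159).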

How the data were processed

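Soleus RNA of 8 mice was sequenced. Per the labels and the paper's methods, the authors used Trimmomatic 0.33 for trimming and STAR 2.5.1b for alignment to GRCm38, counted reads per Ensembl gene with featureCounts and deposited raw counts. Labels name a total RNA kit and the paper poly A enrichment. Per the paper, multi-mapping reads were counted at their primary alignment only, and a minimum mapping quality was set, which can drop such reads. Copies can thus lose reads. Reads that overlap several genes were counted too, so genes with shared exon bases may hold reads of their neighbours.

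Symbols, positions and exon lengths came from GENCODE M21 (22647 of 22880 IDs matched). In edgeR 4.0.16 (R 4.3.3), genes were filtered with filterByExpr (minimum count 10, minimum total 15), scaled by TMM and tested by the quasi-likelihood F-test, with Benjamini-Hochberg adjustment over 14001 genes. Every member was accounted for; those at the ends of each role, past both thresholds, of the immunoproteasome with their partners and the activators were given by mouse, and Psmd11, Psmd14 and Psmc4 were added after their values were seen. Members, roles and companion lists were chosen with earlier results of these data known. Some genes of the companion lists are not reported here. Shared 31-base stretches were counted between GENCODE transcripts. The fit was tested on simulated data, where the share of changed genes recovered narrowly missed the first criterion, which was then replaced by criteria on the estimate, its direction and the share of false calls. Alternatives were DESeq2 1.42.0, edgeR's exact test, median-ratio factors, library size alone, other count filters, a length and GC correction (mgcv 1.9.3), replicate blocks and leaving out each mouse. Mice with the same title number showed no pairing (correlations -0.21 to 0.0095), which does not exclude a shared litter or batch, and the fit has no block.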

Additional observations from a re-analysis of the deposited data

Results flagged for a closer look

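In 7 of the 96 groups of 4 mice, 1 mouse stood apart from the other 3 by more than Dixon's critical share of the range, where chance alone flags about 1 in 20 groups. Control 3 was high for Psma5 (61.5 CPM, the others 48.4 to 50.5), for Psmd7 (117 CPM, the others 107 to 109) and for Psmd12 (123 CPM, the others 115 to 116). Control 1 was high for Psmb10 (17.5 CPM, the others 14.4 to 14.7). Dnm2 +/K562E mouse 4 was low for Psmb2 (54.0 CPM, the others 61.1 to 61.7) and high for Psmd7 (139 CPM, the others 117 to 120). Dnm2 +/K562E mouse 2 was low for Psme3 (55.1 CPM, the others 60.1 to 60.6).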

How the results depend on the processing

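Psmb10, Psmd8, Psmd11, Psmd14 and Psme1 kept their direction and an adjusted p under 0.05 in all 17 alternatives. With library size alone, 3 members were higher by both thresholds (Psmb10, Psmd11 and Psmd8) and 0 lower, by edgeR and also at an unadjusted p under 0.05, where DESeq2 with its own factors gave 2. By adjusted p alone, 28 were higher and 1 lower. Medians were then 0.22 over all members, 0.21 for alpha, 0.12 for beta, 0.23 for immunoproteasome, 0.26 for ATPase and 0.33 for other regulatory subunits, 0.18 for chaperones and 0.11 for activators. The sign turned for 19 of the 48 members. Those among them that passed the adjusted p under either scaling were Psma2 (0.20), Psma3 (0.0053), Psmb3 (0.16), Psmc2 (0.18), Psmc3 (0.16), Psmd3 (0.20) and Psmd12 (0.0497), and Keap1 turned as well (0.0043). The median of all genes was 0.22 with this scaling.

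With the length and GC correction, which moved the median of all genes to -0.08, 0 members were higher by both thresholds (0 at an unadjusted p under 0.05, and 1 by DESeq2 without it), 4 were higher and 8 lower by adjusted p alone, and the medians were -0.0866 over all members, -0.0844 for alpha, -0.175 for beta, -0.0176 for ATPase and 0.0247 for other regulatory subunits. The sign turned for 11 members, none of which passed the adjusted p before or after. The cause was not tested.

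Leaving out 1 mouse gave 6 to 8 members higher and 3 to 6 lower by adjusted p alone; 3 were lower without control 2, without control 3 or without Dnm2 +/K562E mouse 2. With a replicate block by title number 6 members were higher and 3 lower, and by description number 8 and 3. Psma3 and Psmd12 no longer passed in either, and Psma5 and Psmd13 no longer passed with the block by title number. Correlations of same-numbered mice averaged -0.11 by title and -0.03 by description, where single pairs ran from -0.167 to 0.178. No pairing was seen, but so few pairs cannot exclude a shared litter or batch. Depth limits Psma8 and Psmb11, at 0 to 3 counts.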
